A study of Drosophila melanogaster with 6 samples.

Results

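The cytosolic ribosomal protein genes were followed through whole midguts of Apc1 mutant and wild-type Drosophila melanogaster females. Members were all genes on the array whose symbol begins with RpL, RpS or RpLP and a digit, together with stubarista (sta), the fly gene for the ribosomal protein SA. The rule found 95 probe sets of 82 genes among 12969 gene entries, and each gene was read from its brightest probe set, so that 81 distinct probe sets stand for the 82 genes (RpS15Aa and RpS15Ab share one). Each probe set consists of several short oligonucleotides that report on the transcripts of 1 gene or of a few related genes.

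The samples were 3 of wild type and 3 of Apc1-/- (allele Apc1Q8), each made from total RNA of pooled whole midguts of adult females aged 7 days and hybridised to 1 Affymetrix Drosophila Genome 2.0 array. The series description gives w1118 as the wild-type strain and the published methods give Canton S. Apc1Q8 is described as a null allele and was carried by the whole animal, so that every midgut cell type, and every other tissue, lacked the protein. Nothing states that the samples of a genotype came from separate crosses, and p-values therefore measure only the spread between these pools.

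Ribosomes translate messenger RNA into protein, and each is built from a small subunit, which reads the message, and a large subunit, which joins the amino acids. The proteins of both subunits are made in near equal numbers, their genes are among the most strongly transcribed in any growing cell, and in Drosophila the loss of 1 copy of many of them gives the slow-growing, short-bristled Minute phenotype. Apc1, like human APC, promotes the destruction of the transcription cofactor beta-catenin (Armadillo), and the midgut holds stem cells whose division depends on that pathway. Myc, a regulator of ribosome production, and the stem cell marker esg are both expressed in this tissue. In bulk midgut RNA, fewer cells of a type and less RNA per cell cannot be told apart.

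Transcript levels did not report the mutation. Apc was measured at log2 values of 6.55, 5.89 and 6.63 in wild type and 6.41, 6.13 and 6.94 in mutants, which overlap, and a null allele need not alter the level of its own transcript. The midgut labels held for markers of the tissue: the enterocyte genes alphaTry and mex1 had wild-type means of 11.97 and 11.10. The progenitor marker esg was higher in mutants by 1.10 (limma, adjusted p = 0.000762), and 7 of 9 enteroendocrine genes were called higher and 1 (NPF) lower. Of the 7 enterocyte genes 5 had a lower mean in mutants, and 2 (alphaTry and betaTry) were called lower. The other 2, Myo31DF and nub, were higher without overlap, by 0.47 and 0.53, and were not called. Over all entries, 8.91% were called higher and 5.38% lower. Arrays of 1 genotype correlated with each other at 0.982 to 0.992 over all entries and arrays of different genotypes at 0.949 to 0.961. Of Malpighian tubule genes 3 of 6, and of hindgut genes 1 of 5, were called lower in mutants.

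No ribosomal protein gene was called as changed in the mutants. limma (Benjamini-Hochberg adjustment over all 12969 entries, called at an adjusted p under 0.05) called 0 of 82 members, against 14.3% of all entries (8.91% higher and 5.38% lower). At an unadjusted p under 0.05 it marked 5 members, all of them lower in mutants, against 28.6% of all entries in either direction and 11.0% lower. Among the 5 were RpL27, RpL37b, RpL18 and RpL6. The median difference over the 82 members, mutant minus wild type, was -0.02 on the log2 scale, beside 0.01 over all entries, and 45 members had a lower and 37 a higher mean in mutants. Centring each array on its median over all entries moved the median difference to -0.14 for the members and to -0.10 for all entries. The number of members with a higher mean became 17. Without centring, the median at a mean of 5 or more was -0.01 over 74 members and 0.12 over 4892 entries. Lower means in mutants made up 51.4% of these members and 37.8% of these entries.

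The differences were small as well as uncalled. Means differed by more than 1.5-fold for 1 of 82 members, and no member was both called and changed by more than 2-fold, beside 6.26% of all entries. The differences of the 79 members reported by name lay between -0.43 for RpL27 and 0.24 for RpL21. The 95% limits of the difference lay within 1.5-fold in either direction for 73 members and within 2-fold for 81, and the median distance from an estimate to its limits was 0.32. In a typical member a change of up to that size could therefore not be told from 0. Values of the genotypes did not overlap for 13 members, 9 lower and 4 higher in mutants. These are 15.9% of members, beside 35.2% of all entries (14.2% lower and 20.9% higher). At a mean of 5 or more the share was 13.5% of members and 49.7% of entries.

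**Figure D1:**
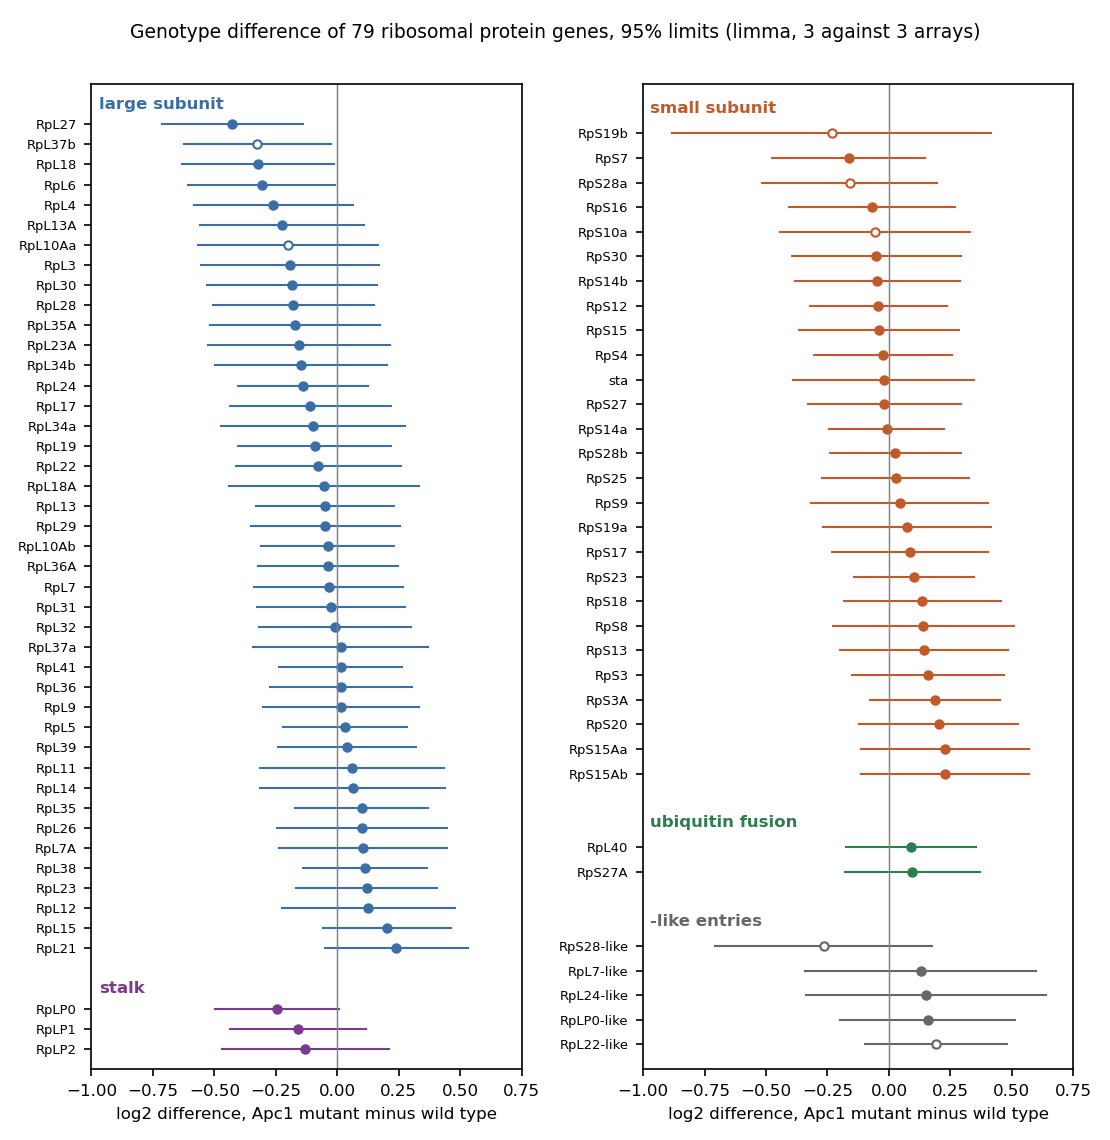
Log2 difference of the genotypes (horizontal axis, Apc1 mutant minus wild type) for 79 ribosomal protein genes, grouped by subunit, with points for the limma estimate and bars for its 95% limits over 3 and 3 arrays; open points have a mean log2 value under 5. Nearly all bars cross 0, whereas the bars of RpL27, RpL37b, RpL18 and RpL6 lie wholly below it.

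The members were among the brightest transcripts of the midgut. Of the 82, 73 lay above the upper quartile of all entries on every one of the 6 arrays, and 57 members had a mean log2 value of 10 or more, a level that 288 of all entries reached. Among the 8 members with a mean under 5 were RpL10Aa, RpL22-like, RpL37b, RpS10a, RpS19b, RpS28a and RpS28-like, and these 7 lay below the array median on every array. The further descriptions by array use the 74 members, or 73 distinct probe sets, with a mean of 5 or more.

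Wild type replicate 3 stood apart in these genes. The median level of the 73 probe sets was 10.84, 10.72 and 11.15 on wild type replicates 1 to 3 and 10.97, 10.91 and 10.90 on the mutant arrays, with means of 10.90 for wild type (SD 0.22, n = 3) and 10.93 for mutants (SD 0.03, n = 3). All 74 members had their highest wild-type value on replicate 3, beside 41.3% of all entries with a mean of 5 or more. It was the highest of all 6 arrays for 64 of the 73 probe sets, and wild type replicate 2 was the lowest of the 6 for 40. The mutant arrays lay between the wild-type extremes: for 47 of the 74 members all 3 mutant values fell inside the wild-type range, beside 14.0% of all entries with a mean of 5 or more.

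**Figure D2:**
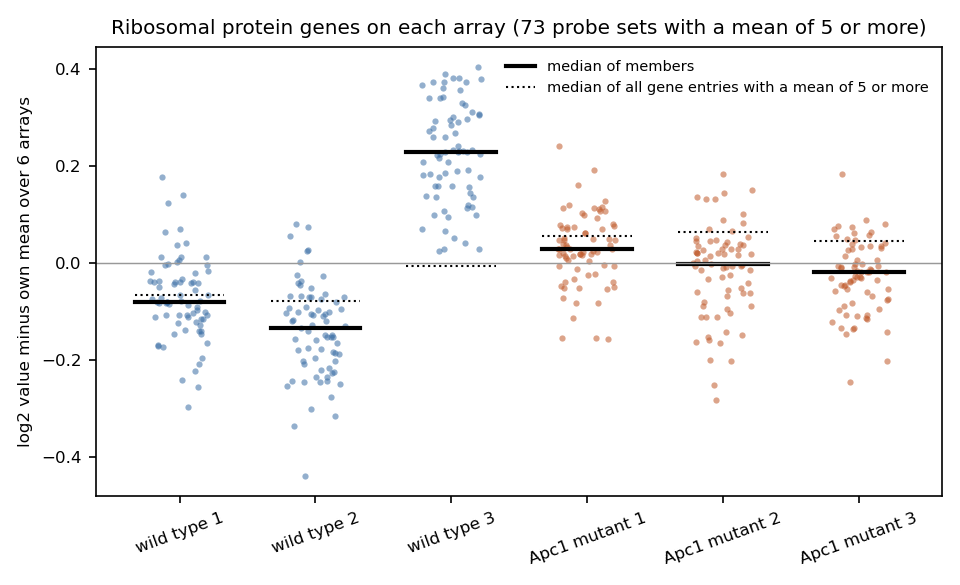
Log2 value of each of 73 ribosomal protein probe sets minus its own mean over the 6 arrays (vertical axis), by array, with thick lines for the median of the members and dotted lines for the median of all gene entries with a mean of 5 or more. Every point of wild type replicate 3 lies above 0, with a median of 0.23, whereas the dotted line lies at -0.01 on that array.

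The height of wild type replicate 3 was common to both subunits and smaller in other genes. Its value exceeded the mean of wild type replicates 1 and 2 by a median of 0.34 in the 74 members (0.04 to 0.69), by 0.32 in the large subunit and by 0.35 in the small. Over all entries with a mean of 5 or more the median was 0.07, and over the 232 equally bright entries that are not members, with a mean of 10 or more, it was -0.01. Mitochondrial ribosomal proteins, which form the separate ribosome of that organelle, had a median of 0.02. Initiation factors, elongation and release factors and genes of ribosome biogenesis lay between, at 0.15, 0.18 and 0.20. The pattern in ribosome biogenesis was a different one. There wild type replicate 2 exceeded replicate 1 by a median of 0.36, beside -0.06 in the 74 members. Replicate 3 was the highest wild type in 11 of those 22 genes and replicate 2 in the other 11.

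**Figure D3:**
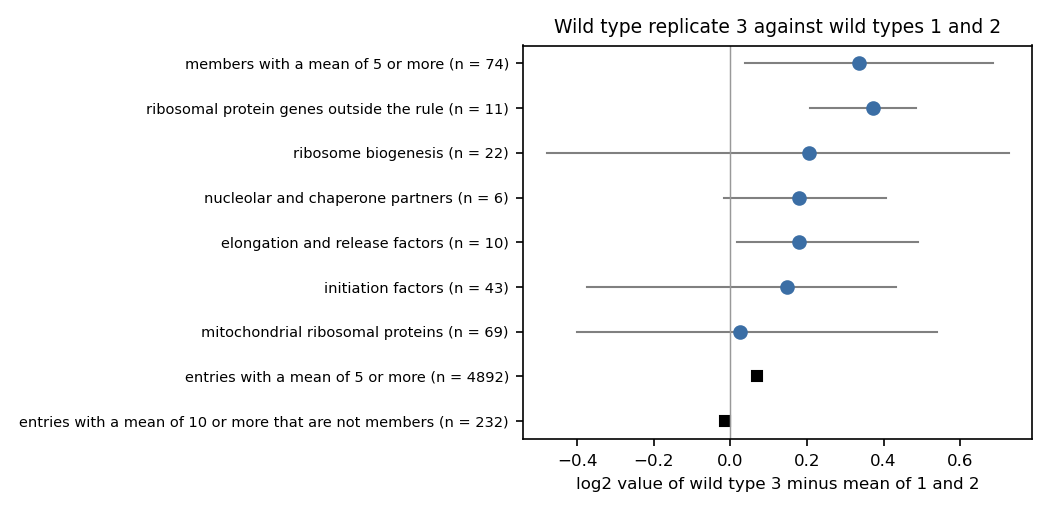
Log2 value of wild type replicate 3 minus the mean of wild type replicates 1 and 2 (horizontal axis), as the median (circles) and range (lines) over each list, with squares for the medians over all bright entries. The cytosolic ribosomal protein genes lie farthest to the right, at 0.34 and, for those outside the symbol rule, 0.37.

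The spread of the members was wider in wild type. The median SD of a member was 0.20 over the wild-type arrays and 0.04 over the mutant arrays, beside 0.19 and 0.14 over all entries, and the SD was larger in wild type for 78 of 82 members, or 95.1%, beside 61.9% of all entries. Without wild type replicate 3 the direction of the family changed: the median difference was 0.09, and 61 of 82 members (74.4%) had a higher mean in mutants, beside 52.0% of all entries. Then 53 of 82 members did not overlap between genotypes, beside 47.0% of all entries, most of which were dimmer. Still none was called, beside 11.2% of all entries. With each array centred on its median over the members, 0 were called and 37 did not overlap, beside 11.0% and 29.8% of all entries. That centring takes out the shift that the members share on each array. Their lesser overlap in this setting was therefore largely built in. The sign without replicate 3 went from lower to higher for 24 members and from higher to lower for 0. Replicate 3 was the highest wild type in 75 of 82 members, and leaving it out could only raise their differences. The direction of these sign changes was therefore fixed in advance. What set replicate 3 apart was not tested.

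Genes of the large subunit tended to the lower side on all 6 arrays. Of 42, 26 had a lower mean in mutants (61.9%), beside 48.5% of all entries and 37.8% of those with a mean of 5 or more. None of the 42 was called, and their median difference was -0.04. Without wild type replicate 3, 14 of 42 were lower and the median was 0.06. No share of lower means was tested.

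RpL27, a structural protein of the large subunit, had the lowest adjusted p of all members. Its log2 values were 10.60, 10.50 and 10.81 in wild type and 10.27, 10.14 and 10.22 in mutants. The genotypes did not overlap, with every mutant array below every wild-type array, and without wild type replicate 3 the difference was -0.34. Over all arrays the difference was -0.43 ± 0.12 (SE, n = 3 and 3), or 1.34-fold lower in mutants, at an adjusted p of 0.0603 by limma. With the same difference it passed the threshold when entries with a mean under 5 were left out (adjusted p = 0.0297, where 30.6% of the remaining entries passed) or a mean under 10 (adjusted p = 0.0193, where 33.7% did), and it also passed with quantile normalization or with arrays centred on their medians, with differences of -0.45 and -0.54.

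A few other large subunit genes lay below the wild-type arrays without overlap. RpL18 was measured at 8.68, 8.54 and 8.88 in wild type and 8.50, 8.34 and 8.29 in mutants, a difference of -0.32 ± 0.13 (SE; adjusted p = 0.16 by limma). RpL6 was measured at 9.70, 9.72 and 10.03 against 9.51, 9.50 and 9.52, a difference of -0.31 ± 0.13 (adjusted p = 0.162). RpL4 was measured at 7.81, 7.74 and 8.14 against 7.68, 7.56 and 7.66, a difference of -0.26 ± 0.14 (adjusted p = 0.266). In each the 3 mutant values were the lowest of the 6, and without wild type replicate 3 the differences were -0.23, -0.20 and -0.14. RpL24 and RpL35A, with differences of -0.14 and -0.17, likewise did not overlap, and without wild type replicate 3 their differences were -0.08 and -0.03.

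At the other end, RpL21 and RpL15 had the highest differences of the large subunit. RpL21 was measured at 11.81, 11.87 and 12.12 in wild type and 12.17, 12.24 and 12.11 in mutants, a difference of 0.24 ± 0.12 (SE; adjusted p = 0.255 by limma). RpL15 was measured at 12.75, 12.70 and 12.92 against 13.00, 13.03 and 12.95, a difference of 0.20 ± 0.11 (adjusted p = 0.282). Both were lowest on wild type replicates 1 and 2, and of the pair RpL15 alone did not overlap. RpL5 and RpL11, which bind the 5S ribosomal RNA together, had differences of 0.03 and 0.06. RpL3, at the catalytic centre of the large subunit, had a difference of -0.19 ± 0.15, with 1 mutant array between the lower wild types.

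RpL32, also known as rp49 and widely used as a reference transcript in fly RT-qPCR, differed between the genotypes by less than its spread. Its values were 10.31, 10.31 and 10.65 in wild type and 10.47, 10.41 and 10.36 in mutants. The difference was -0.01 ± 0.13 (SE), with 95% limits of -0.32 and 0.30. RpL41, which encodes a very short peptide, had means of 13.10 and 13.12.

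The stalk is the flexible arm of the large subunit on which elongation factors land, with RpLP0 at its base and RpLP1 and RpLP2 bound to it. All 3 genes had a lower mean in mutants, and none was called. RpLP0 was measured at 10.42, 10.43 and 10.58 in wild type and 10.27, 10.20 and 10.22 in mutants, with no overlap, a difference of -0.25 ± 0.11 (SE; adjusted p = 0.185 by limma) and -0.19 without wild type replicate 3. RpLP1 was measured at 12.34, 12.21 and 12.50 against 12.22, 12.16 and 12.19, a difference of -0.16 ± 0.12 and -0.08 without wild type replicate 3. RpLP2 was measured at 10.78, 10.71 and 11.16 against 10.78, 10.77 and 10.72, a difference of -0.13 ± 0.14 that turned to 0.01 without wild type replicate 3. The stalk genes are too few for a statement on the group.

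Small subunit genes were evenly divided. Of 30, 15 had a lower and 15 a higher mean in mutants, the median difference was 0.01, and 0 were called. Without wild type replicate 3, 4 of 30 were lower and the median was 0.12. Of the 26 bright members of this subunit, 20 had all their mutant values inside the wild-type range, beside 22 of 40 of the large subunit.

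RpS15Aa, RpS20 and RpS3A had some of the largest differences in the small subunit. The probe set of RpS15Aa and RpS15Ab read 11.23, 11.24 and 11.65 in wild type and 11.65, 11.63 and 11.52 in mutants, a difference of 0.23 ± 0.14 (SE; adjusted p = 0.358 by limma). RpS20, whose probe set also carries the symbol of Dscam, read 10.85, 10.80 and 11.18 against 11.24, 11.09 and 11.11, a difference of 0.20 ± 0.14 (adjusted p = 0.386). Both pairs overlap through wild type replicate 3. RpS3A, the one member on chromosome 4, was higher on all mutant arrays, at 11.77, 11.73 and 11.70 against 11.47, 11.48 and 11.69, a difference of 0.19 ± 0.11 (adjusted p = 0.327).

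RpS23, which lies at the decoding centre, did not overlap either, although its difference was only 0.10 ± 0.10 (SE). Its values were 12.45, 12.50 and 12.61 in wild type and 12.62 on each of the mutant arrays. The SD of its mutant values, 0.00267, was the smallest of all members, and with arrays centred on their medians its difference turned to -0.01. sta had values of 10.91, 10.85 and 11.36 against 11.05, 10.99 and 11.02, a difference of -0.02 ± 0.16.

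RpS27A and RpL40 are made as fusions to ubiquitin and are cut into a ribosomal protein and a free ubiquitin. RpL40 was measured at 12.40, 12.37 and 12.60 in wild type and 12.57, 12.52 and 12.54 in mutants, and RpS27A at 11.56, 11.52 and 11.80 against 11.72, 11.70 and 11.75. In both, all mutant values lay between wild type replicates 1 and 3. The differences were 0.09 ± 0.11 and 0.10 ± 0.12 (SE).

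Several fly ribosomal proteins come in paralog pairs, and in some of them one copy is used in nearly all cells and the other mostly in the germ line. Levels of different probe sets cannot be set against each other on this platform, but each copy can be placed among all entries of its array. In the pairs RpL10Aa/b, RpL22/RpL22-like, RpL37a/b, RpS19a/b and RpS28a/b, 1 copy had a mean above 9 and the other under 5. The bright copies RpL10Ab, RpL22, RpL37a, RpS19a and RpS28b had differences of -0.04, -0.08, 0.01, 0.07 and 0.03. The pairs RpL34a/b and RpS14a/b were bright in both copies. RpL34a was measured at 8.05, 7.91 and 8.45 in wild type and 8.10, 8.03 and 7.98 in mutants, and RpL34b at 8.72, 8.65 and 9.11 against 8.64, 8.76 and 8.64.

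RpS14a and RpS14b, both on the X chromosome, differed by -0.01 and -0.05. RpS14a read 12.23, 12.30 and 12.30 in wild type and 12.26, 12.28 and 12.26 in mutants. RpS14b read 9.31, 9.28 and 9.70 against 9.42, 9.37 and 9.35. The height of wild type replicate 3 was thus present in RpS14b and close to absent in RpS14a, which had the smallest excess of that array among the 74 members, 0.04.

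RpS19b, a copy used in the germ line, had its highest value on wild type replicate 2. It read 1.10, 2.23 and 1.36 in wild type and 1.28, 1.33 and 1.39 in mutants. Its difference of -0.23 ± 0.28 (SE) turned to 0.10 without wild type replicate 2. In the fit without that array, 1 of 82 members was called by limma, beside 11.8% of all entries, and it was not RpS19b (adjusted p = 0.688).

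Genes of the ovary and eggshell stood high on the same array. Their summed linear level over 15 entries was 925, 3101 and 1287 on wild type replicates 1 to 3 and 668, 124 and 702 on the mutant arrays. Of the 15, 12 had their highest value of all 6 arrays on wild type replicate 2, and 12 had a mean under 3. The germ line gene osk read 3.24, 6.33 and 1.36 in wild type and 2.07, 2.17 and 1.72 in mutants, and the eggshell gene Vm26Aa read 2.66, 5.08 and 2.55 against 2.17, 1.80 and 2.41. On the same list, otu, aub, ovo and piwi were likewise highest on wild type replicate 2. Of these, otu read 2.55, 4.82 and 1.77 in wild type and 1.82, 1.10 and 1.54 in mutants. The germ cell genes vas and bam stayed at or under 1.70 on every array, and whether they were transcribed at all was not tested. The sum rests mostly on the yolk protein genes Yp1, Yp2 and Yp3, which the fat body also makes. None of the 15 was called. The summed linear level of 7 fat body genes was also highest on that array. It was 458, 1429 and 952 in wild type and 795, 750 and 759 in mutants. Of the 7, 4 had their highest value of all 6 arrays there, and 4 had a mean under 3. Fbp1 and Fbp2 were highest on wild type replicate 3 and Col4a1 on mutant replicate 3. The fat body lipoprotein gene apolpp read 6.39, 9.21 and 7.80 in wild type and 7.21, 5.65 and 7.79 in mutants. The excess was not limited to these lists. The 9 visceral muscle genes summed to 6011, 7318 and 5920 in wild type and 5977, 7175 and 6240 in mutants. The part of ovary or fat body RNA in the value of RpS19b was not tested.

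**Figure D4:**
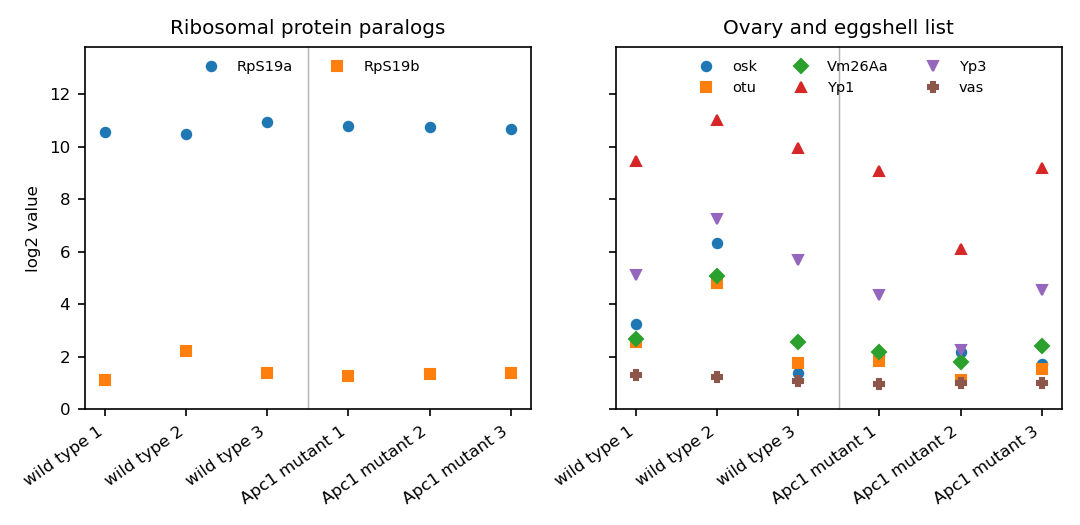
Log2 values (vertical axis) on each of the 6 arrays for the paralogs RpS19a and RpS19b (left) and for 6 genes of the ovary and eggshell list (right), 1 marker per gene. RpS19b is highest on wild type replicate 2, as are osk, otu, Vm26Aa, Yp1 and Yp3, whereas vas is low on all arrays.

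Of the other dim members, RpL37b read 3.04, 2.85 and 3.01 against 2.80, 2.65 and 2.48, with no overlap and a difference of -0.32 ± 0.13 (adjusted p = 0.147 by limma). RpS28a read 3.00, 3.00 and 2.85 against 2.99, 2.87 and 2.51, and RpL10Aa 1.59, 1.07 and 1.19 against 1.10, 1.01 and 1.14. RpS10a read 1.34, 1.67 and 1.94 against 1.62, 1.56 and 1.59. At these levels a difference depends on the background correction, and whether the gene was transcribed at all was not tested.

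Members named after a ribosomal protein with the suffix -like are related proteins, of which RpL7-like, RpL24-like and RpLP0-like correspond to factors that assemble the large subunit in yeast. RpL24-like was measured at 8.43, 8.16 and 8.98 in wild type and 8.70, 8.63 and 8.67 in mutants, a difference of 0.15 ± 0.21 (SE). RpL7-like, read by a probe set shared with CG34164, was measured at 7.07, 7.09 and 7.75 against 7.39, 7.36 and 7.55, and RpLP0-like at 5.28, 5.06 and 5.51 against 5.60, 5.39 and 5.33. In RpL24-like and RpL7-like the mutants lay above wild type replicates 1 and 2 and below replicate 3. RpL24-like and RpL7-like had the largest excess of wild type replicate 3 of the bright members, 0.69 and 0.67. RpL22-like, enriched in the testis, read 1.73, 1.76 and 1.49 against 1.78, 1.83 and 1.95, and RpS28-like read 2.09, 2.21 and 2.11 against 1.76, 1.58 and 2.28.

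By chromosome arm, members with a lower mean in mutants were most frequent on 3R, where Apc itself lies. Of the 22 members on 3R, 17 had a lower mean in mutants (77.3%, beside 47.9% of all entries on 3R), with a median difference of -0.15. Of the 60 members on the other arms, 28 were lower (46.7%, beside 48.6% of all entries there), with a median of 0.01. RpL27, RpL6, RpL4, RpL13A and RpL3 were among those on 3R, and 5 of its 22 members had a mean under 5. Of the 17 with a mean of 5 or more, 12 were lower, with a median of -0.10. These 17 were dimmer than the 57 such members elsewhere, with median levels of 9.70 and 11.01 on wild type replicate 1. Among members of such levels, brighter ones tended to a higher difference (Spearman's rho 0.41). The part of level in the contrast between arms was not tested.

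Without wild type replicate 3, 12 of 22 members on 3R were lower, with a median of -0.02, and 9 of 60 on the other arms, with a median of 0.10. With each array centred on its median over the members, 16 of 22 on 3R were lower (median -0.14) and 27 of 60 elsewhere (median 0.03). None of these counts was tested, and alleles that the mutant chromosome carries beside Apc1Q8 cannot be told apart from the mutation in this design.

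**Figure D5:**
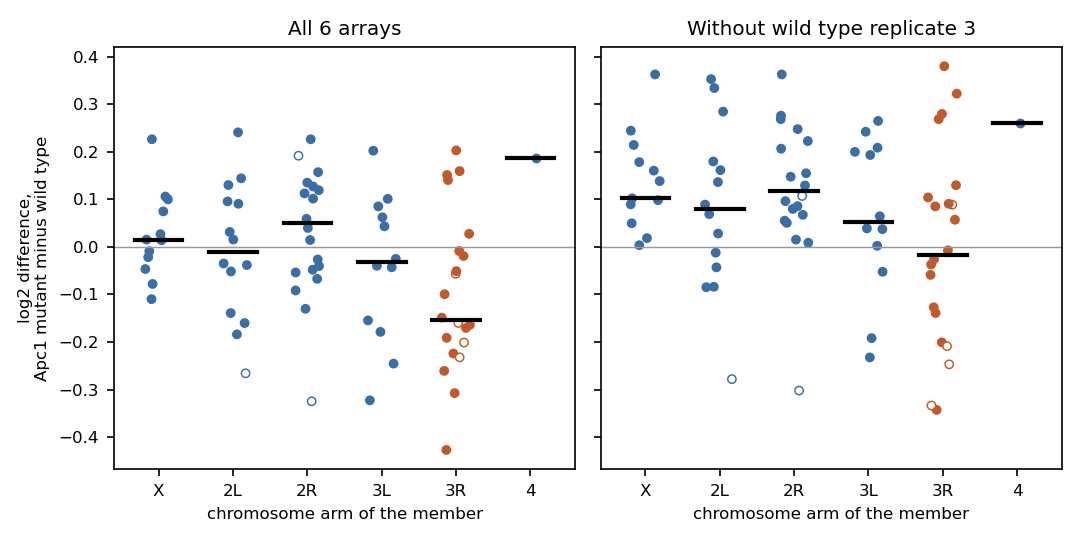
Log2 difference of the genotypes (vertical axis, Apc1 mutant minus wild type) for the members by chromosome arm, on all 6 arrays (left) and without wild type replicate 3 (right), with lines for the arm's median over all its members; open points have a mean under 5, and the points are those of 79 members. The median of 3R is the lowest of the arms in both panels, at -0.15 and -0.02.

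Genes with more than 1 probe set did not always read alike. The 10 such members had 14 further probe sets, of which 10 were lower in mutants and 0 were called. For RpL35 the brightest probe set differed by 0.10, and another read 11.54, 11.40 and 11.64 against 11.34, 11.38 and 11.34. For RpS7 the brightest read 9.33, 9.29 and 9.62 against 9.35, 9.17 and 9.22, and a dimmer one 5.68, 5.54 and 5.38 against 4.83, 4.90 and 5.21, a difference of -0.55. Whether these report different transcripts of the gene was not tested.

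The probe set by which the rule reads RpL36A also carries the symbol CG14645 and an accession of that gene. It read 13.24, 13.20 and 13.30 in wild type and 13.08, 13.38 and 13.18 in mutants. The probe set with an accession of RpL36A itself read 11.69, 11.60 and 11.98 against 11.85, 11.81 and 11.81. Neither differed beyond its spread, at -0.04 and 0.07. In the first, wild type replicate 3 exceeded the mean of replicates 1 and 2 by 0.08, beside a median of 0.34 in the 74 bright members. The height of that array was plainer in the second.

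A further 11 ribosomal protein genes are listed on the array under another symbol or none, among them RpS6, the substrate of S6 kinase, and RpS2, known as string of pearls. RpS6 was measured at 9.26, 9.06 and 9.65 in wild type and 9.51, 9.49 and 9.42 in mutants, a difference of 0.15 ± 0.16 (SE). RpS2 was measured at 8.85, 8.85 and 9.21 against 8.99, 8.93 and 8.89, a difference of -0.04 ± 0.13. Of the 11, 7 were higher and 4 lower in mutants, 0 were called, and all had their highest wild-type value on replicate 3. RpS10b, the bright paralog of RpS10a, read 10.47, 10.14 and 10.69 against 10.62, 10.46 and 10.54.

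Among other genes of translation few were called. Of 43 initiation factors, 0 were called by limma, and the median difference was 0.08. The nearest on the higher side were eIF3k, a subunit of the initiation complex, at 0.41 ± 0.16 (SE; adjusted p = 0.139), eIF4G2 at 0.42 and eIF4E5 at 0.27, and on the lower side eIF3d2, eIF4E7 and eIF4E6 at -0.23, -0.20 and -0.23. Of these, eIF4E5, eIF3d2, eIF4E7 and eIF4E6 had means under 3. Of 10 elongation and release factors 0 were called, and the median difference was 0.04. The release factor eRF3 was at -0.29 ± 0.11 (SE; adjusted p = 0.139) and eEF5 at 0.25 ± 0.11 (adjusted p = 0.174), whereas eEF1gamma, eEF2, eEF1alpha1 and eEF1delta lay between -0.12 and 0.19. The nucleolar and chaperone genes gave 0 calls of 6, with the histone chaperones Nph and Nlp at 0.39 and 0.39, bic at 0.19 and the ribosome-bound scaffold Rack1 at -0.33 ± 0.14 (adjusted p = 0.184).

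In ribosome biogenesis 1 of 22 genes was called, and the median difference was 0.21. Wild type replicate 1 was low in this list. The summed linear level was 2338, 3043 and 3292 in wild type and 3143, 3196 and 3163 in mutants. For 11 of the 22 genes all mutant values lay inside the wild-type range, and 6 did not overlap, all higher in mutants. The part of wild type replicate 1 in the median difference was not tested. The called gene was Rrp1, at 2.44, 3.69 and 3.22 in wild type and 4.13, 4.42 and 4.57 in mutants (adjusted p = 0.039), which in the fly is a DNA repair endonuclease and stands on the list by its symbol alone. The RNA helicase pit was higher by 0.42 ± 0.11 (SE; adjusted p = 0.0512) and the nucleolar GTPase Non1 by 0.73 ± 0.21 (adjusted p = 0.0649), both without overlap. Myc was measured at 8.79, 9.35 and 9.67 in wild type and 9.13, 9.12 and 9.06 in mutants, a difference of -0.17 ± 0.22, and Surf6 and nop5 differed by -0.32 and -0.20.

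Mitochondrial ribosomal proteins were the only such list with several calls. Of 69 genes, 4 were called higher and 1 lower, or 7.25%, beside 14.3% of all entries, and the median difference was 0.08. mRpS14 was measured at 5.65, 5.51 and 5.61 in wild type and 6.78, 6.71 and 6.46 in mutants, a difference of 1.06 ± 0.13 (SE; adjusted p = 0.00248 by limma). mRpL39 was higher by 0.81 ± 0.15 (adjusted p = 0.0139) and mRpL32 by 0.51 ± 0.12 (adjusted p = 0.034), whereas the difference of mRpL28 was -0.40 (adjusted p = 0.0464). The next lower ones were mRpL33 at -0.45 and mRpS25 at -0.34, which were not called.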

How the data were processed

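Per the labels and the published methods, the authors hybridised RNA of 3 wild-type and 3 Apc1 mutant pools of midguts to Affymetrix Drosophila Genome 2.0 arrays and deposited RMA-normalised log2 values for 18952 probe sets. The processing notes name MAS5 and RMA. Software and background correction are not given in the sources used here. The deposited columns of the authors' comparison (ratios and p-values) were not used.

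The 183 control probe sets were left out, and 3977 had no gene name. The others were named through RefSeq accessions (14066), symbols (305) or the table alone (118), and 303 match several genes. Each of 12969 entries was read from its brightest probe set. Genotypes were compared with limma 3.58.1 (R 4.3.3; lmFit and eBayes, trend off), with p-values adjusted over all entries by Benjamini-Hochberg. Tables were made with Python 3.11.15 and pandas 2.3.3 and plots with matplotlib 3.10.9. The fit was tested on simulated data.

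Members and lists were chosen with earlier results of these data known. Values of every array were planned for paralog pairs, the stalk, the ubiquitin fusions, sta, RpS6, -like genes and the 5 largest differences in each direction, and the 3 lowest adjusted p in each direction for other lists. RpL32, RpL36A, the non-overlapping RpL4, RpL24, RpL35A, RpS23 and RpS3A, and the members with a second probe set were added after values were seen. Alternatives covered scaling, filters, probe sets, array weights, the replicate number as a block and each array left out. Promoter and protein sequences were not analysed here. Of the 82 members, 3 stay in every count and median but are not reported by name here.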

Additional observations from a re-analysis of the deposited data

How the results depend on the processing

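The count of 0 members called was also found with the mean of all probe sets (13.9% of all called). The same held with each probe set counted (11.0%), with array weights (14.4%) and at an adjusted p under 0.01. It held too without -like and shared probe sets (71 genes). Chosen after seeing the data, members by RefSeq accession (93 genes) and arrays centred on the member median (11.0%) also gave 0. The count was 1, RpL27, with arrays centred on medians (12.3% of all called) or upper quartiles (12.8%). So it was with quantile (12.6%) or cyclic loess normalization (12.3%) and with trend and robust estimation (14.5%). It was also 1, again RpL27, with entries under a mean of 5 (30.6%) or under 10 (33.7%) left out. The adjusted p of RpL27 in these limma fits was 0.0193 to 0.0415. At an unadjusted p under 0.05 the count was 5 (28.6%). Leaving out each array gave 0 to 1 called (7.10% to 11.8% of all entries) and 15 to 53 without overlap (42.8% to 47.0%). It gave 28 to 61 with a higher mean and a median difference of -0.07 to 0.09. Each of these but the calls was highest without wild type replicate 3. The count without overlap, 13, was 27 with upper quartile centring (37.2% of all entries) and 26 with cyclic loess (32.99%). It was 7 of 57 with a mean of 10 or more (46.9%). With member centring, which takes out the shift that the members share, it was 37 (29.8%). Without wild type replicate 2 it was 21 (45.5%). The 37 members with a higher mean became 17 with array-median centring and 23 with upper quartiles. Array-median centring moved all differences down, and the calls over all entries from 1155 higher and 698 lower to 708 and 889. Over all 82 members, leaving out wild type replicate 3 changed the sign of 24, and leaving out replicate 2 that of 13. Of the 18 single genes recomputed under every alternative, 3 changed sign: RpS23 (-0.014) with array-median centring and, over the fits with 1 array left out, RpLP2 (-0.22 to 0.0086) without wild type replicate 3 and RpS19b (-0.46 to 0.099) without wild type replicate 2. The cause was not tested.

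Deviations of same-numbered arrays correlated at 0.15, 0.20 and 0.01. Mutants 1 and 2 correlated best with the wild type of their own number, and mutant 3 did not. With 3 arrays of each genotype this check can neither show nor exclude a pairing of the samples. The fit with the replicate block called 0 members and 1577 of all entries, in place of 1853. With 3 arrays against 3 an exact permutation test cannot give a p below 0.1, and the number of arrays limits the precision.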

Other observations

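Among the 73 ribosomal protein probe sets with a mean of 5 or more, brighter ones tended to a higher difference of the genotypes: Spearman's rho of mean level and difference was 0.41 across probe sets, beside -0.04 across the 4819 other entries at such levels. Probe sets of 1 family on the same 6 arrays are not independent of each other, and the value is a description of these arrays.

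With wild type replicate 3 left aside, the mutant values lay above both other wild types for 41 of the 73 probe sets and below both for 7. Over all entries in that setting, 47.0% did not overlap, and 27.0% did so with mutants higher. The array left aside was the one that stood high in these same genes.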
